A study of Arabidopsis thaliana with 6 samples.

Results

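The small (40S) subunit of the cytosolic ribosome binds the mRNA and reads its codons, and it is built from 18S ribosomal RNA and a set of proteins. In Arabidopsis each of these proteins is encoded by a small family of near-identical genes, so that the same place in the ribosome can be filled from several loci. Ribosomal protein transcripts are among the most abundant in a plant, they are known to be plentiful in growing tissue, and mutants in single Arabidopsis ribosomal protein genes are known for pointed first leaves.

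The genes were 60 loci for cytosolic small-subunit proteins of 27 kinds. A gene was taken as measured when a probe set listed that gene alone. This held for 39 of the 60 genes, for 21 of the 27 proteins, each with a single such probe set. Another 10 genes were listed only on probe sets shared with other genes, and 11 had no probe set listed in the annotation used. Among the genes not measured were both S5 genes, both S6 genes (S6 is the target of S6 kinase) and AT4G00100, the S13 gene PFL2 known for pointed leaves. The 39 were among 13286 genes so measured in the series, and tests ran over all 22746 probe sets.

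RNA came from whole Arabidopsis thaliana seedlings of 2 genotypes in the Col-0 ecotype, wild type (WT) and a mutant in both yaf9a and yaf9b (yaf9a yaf9b). The pair of genes encodes subunits shared by the NuA4 histone acetyltransferase and by SWR1, the complex that deposits the histone variant H2A.Z. Seedlings of both genotypes were untreated, 20 days old, raised on agar plates in days of 8 h at 22 °C with nights of 16 h, and harvested at ZT8. Each group had 3 arrays from independent biological replicates, and this number limits the precision. The labels name no alleles, and no probe set was listed for YAF9A or YAF9B, so the genotype labels were not checked by their transcripts. The leaf gene LHCB4.1 of the photosystem II antenna lay at 13.5 to 13.72 (log2 signal over all arrays). Of the 3 measured root genes, PYK10 was bright, at 11.82 to 12.43, and EXPA18 and EXPA7 were dim, at 4.66 to 5.34 and 3.39 to 3.77. In whole seedlings a change in the share of a cell type and a change of RNA per cell cannot be told apart.

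The 40S genes were higher in the mutant. Of the 39 measured genes, 20 passed limma's test upwards and 0 downwards (adjusted p under 0.05), and all 39 had a log2 change above 0. At an unadjusted limma p under 0.05, 32 were higher and 0 lower. Among all probe sets, 6.52% rose and 6.61% fell, and 13.3% were higher at an unadjusted p under 0.05. The changes were small, from 0.03 to 0.73 on the log2 scale, with a median of 0.37 (1.3-fold), against a median of 0.01 over all probe sets. In 32 genes every mutant array lay above every WT array, an arrangement seen in 15.6% of all probe sets, and in the other 7 the genotypes overlapped. The smallest change that passed was 1.26-fold.

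**Figure D1:**
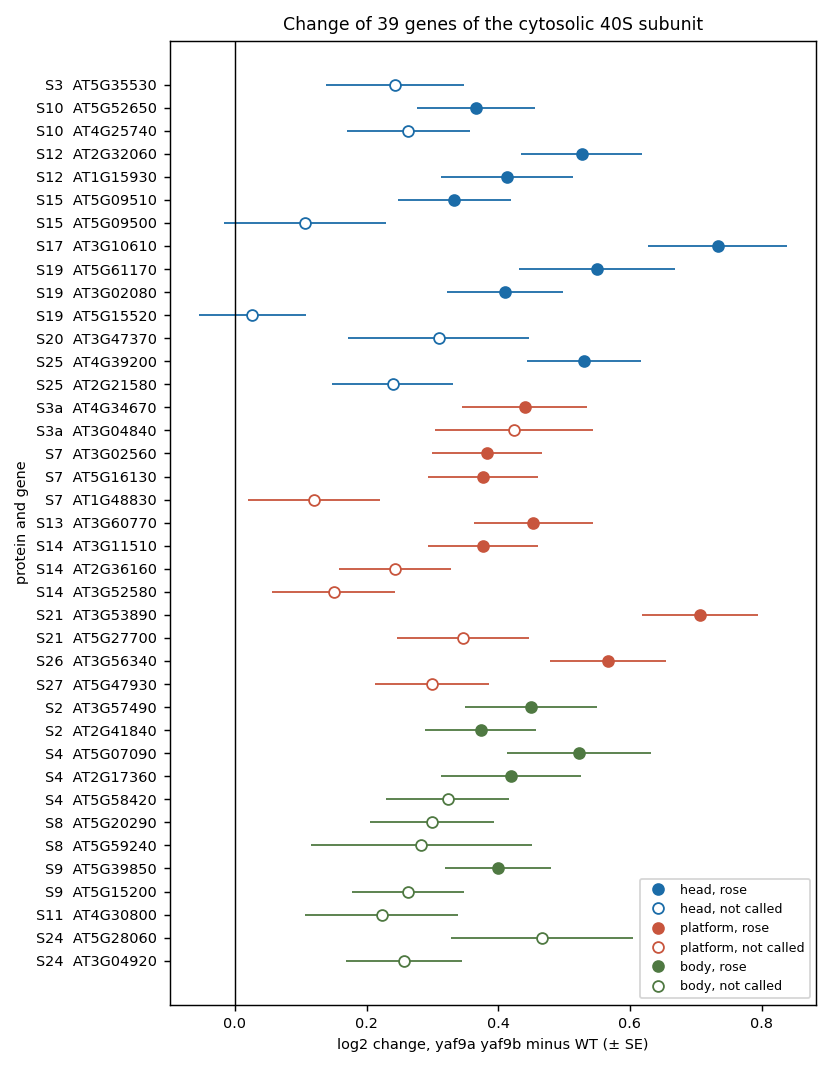
Log2 change (yaf9a yaf9b minus WT, x axis, bars ± limma SE, 3 arrays per genotype) of the 39 measured 40S genes, grouped by protein and by the place of the protein in the subunit (colour). Filled points passed the test; all points lie above 0, from 0.03 for AT5G15520 to 0.73 for AT3G10610.

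The shift was seen on each mutant array. Relative to each gene's WT mean, the median over the 39 genes was 0.07, -0.09 and 0.03 on WT arrays 1, 2 and 3, and 0.35, 0.36 and 0.39 on mutant arrays 1, 2 and 3 (log2 difference). The 3 mutant arrays were thus alike, while WT array 2 was the lowest WT array for 29 of the 39 genes. The median SD within the mutant was 0.0529, and within WT 0.114. Without WT array 2 the median change was 0.32, and 7 genes rose (17.9%, against 3.24% of all probe sets). Without mutant array 2, 4 rose (10.3%, against 2.45%), with a median change still at 0.37. Leaving out only WT array 1, WT array 3, mutant array 1 or mutant array 3 gave 13, 14, 9 and 10 of 39. These were 33.3%, 35.9%, 23.1% and 25.6%, against 4.77%, 4.6%, 4.26% and 6.16% of all probe sets. All 39 changes remained above 0 without each of the WT arrays and without mutant array 2, and 38 did without mutant array 1 or mutant array 3.

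**Figure D2:**
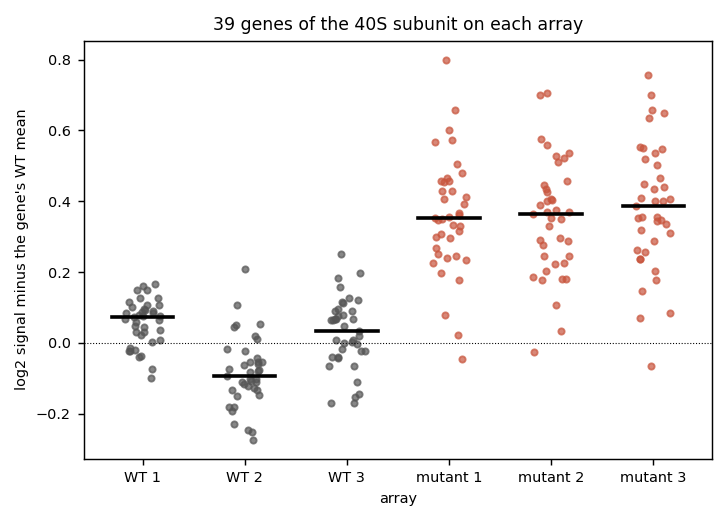
Log2 signal of each of the 39 genes minus that gene's WT mean (y axis) on the 6 arrays (x axis); points are genes and bars are medians. The medians lie between -0.09 and 0.07 on the WT arrays and between 0.35 and 0.39 on the mutant arrays, with WT array 2 lowest.

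The protein names below follow the older S numbering, and the places in the subunit are those known from yeast and mammalian ribosome structures. Of 14 genes for 8 proteins of the head, the part that turns as tRNAs move, 8 rose (median log2 change of all 14, 0.35). Of 13 genes for 7 proteins of the platform, on the side where the mRNA leaves, 7 rose (median 0.38). Of 12 genes for 6 proteins of the body, which holds the mRNA entry side, 5 rose (median 0.35). The ranges of the 3 groups overlapped, at 0.03 to 0.73, 0.12 to 0.71 and 0.22 to 0.52. As a whole, 51.3% of the 39 genes and 6.52% of all probe sets rose. Differences between the 3 groups were not tested.

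Among the head proteins, the S17 gene AT3G10610 had the largest change of all 39. Its log2 signal was 9.37, 9.03 and 9.23 in WT and 10.01, 9.91 and 9.91 in the mutant, a 1.66-fold rise (log2 change 0.73 ± 0.105 SE, limma adjusted p = 0.00521). Its WT array 2 was the lowest, and all mutant arrays were far above all WT arrays. S19, which is needed for 18S RNA maturation in yeast and humans, had 3 measured genes, of which 2 rose. AT5G61170 lay at 10.78, 10.47 and 10.9 in WT and at 11.29, 11.24 and 11.27 in the mutant (0.55 ± 0.118, adjusted p = 0.0219). AT3G02080, the brightest of the S19 probe sets, lay at 11.67, 11.53 and 11.72 and at 12.07, 11.99 and 12.09 (0.41 ± 0.0881, adjusted p = 0.0219). Both genes had separate genotypes. AT5G15520 lay at 7.75, 7.84 and 7.77 in WT and at 7.81, 7.76 and 7.87 in the mutant, which overlapped, and had the smallest change of the 39 (0.03 ± 0.081, adjusted p = 0.877).

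S25, needed in yeast and mammals for initiation at some viral internal entry sites, had 2 measured genes. AT4G39200 rose, from 11.65, 11.64 and 11.48 to 12.07, 12.15 and 12.14 (0.53 ± 0.0867, adjusted p = 0.00873). AT2G21580 did not pass, at 9.46, 9.23 and 9.44 in WT and 9.61, 9.6 and 9.64 in the mutant (0.24 ± 0.0919, adjusted p = 0.133), although its genotypes did not overlap. For S12, AT2G32060 lay at 9.78, 9.52 and 9.66 in WT and at 10.16, 10.19 and 10.19 in the mutant (0.53 ± 0.0924, adjusted p = 0.0111), and AT1G15930 rose as well (0.41, adjusted p = 0.0324). Of the remaining head genes, the S10 gene AT5G52650 (0.37) and the S15 gene AT5G09510 (0.33) rose. AT4G25740 for S10 (0.26), AT3G47370 for S20 (0.31) and AT5G35530 for S3, a protein of the mRNA entry channel (0.24), did not pass. AT5G09500, the chromosomal neighbour of AT5G09510 and also an S15 gene, was the dimmest of the 39, at 3.38, 3.23 and 3.4 in WT and 3.69, 3.37 and 3.27 in the mutant, with overlapping genotypes (0.11 ± 0.123, adjusted p = 0.644). Only 10.9% of all probe sets had a lower mean signal, so a change of that transcript may not have been measurable.

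Among the platform proteins, the S21 gene AT3G53890 changed most. It lay at 10.96, 10.77 and 10.83 in WT and at 11.51, 11.56 and 11.61 in the mutant, 1.63-fold higher (0.71 ± 0.0876, adjusted p = 0.00354). Its paralog AT5G27700 lay at 11.81, 11.87 and 11.61 and at 12.01, 12.17 and 12.15, which did not overlap but did not pass (0.35 ± 0.1, adjusted p = 0.0587). The S26 gene AT3G56340 rose from 11, 10.96 and 11.08 to 11.48, 11.59 and 11.67 (0.57 ± 0.0884, adjusted p = 0.00729). S26 contacts the mRNA just upstream of the start codon in yeast. The S13 gene AT3G60770 rose from 11.4, 11.18 and 11.34 to 11.76, 11.71 and 11.81 (0.45 ± 0.0908, adjusted p = 0.0175). In all 4 of these genes the highest WT array was below the lowest mutant array.

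S7 and S14 each had 3 measured genes. For S7, AT3G02560 lay at 11.39, 11.34 and 11.51 in WT and at 11.78, 11.79 and 11.82 in the mutant, and AT5G16130 at 11.51, 11.35 and 11.43 and at 11.76, 11.83 and 11.83. Both rose by nearly the same amount (0.38 ± 0.0838 each, adjusted p = 0.023 and 0.0245). AT1G48830 did not pass, at 10.66, 10.56 and 10.51 in WT and 10.53, 10.78 and 10.78 in the mutant, with mutant array 1 within the WT range (0.12 ± 0.101, adjusted p = 0.504). For S14, which lies beside the 3' end of the 18S RNA, AT3G11510 rose from 11.5, 11.34 and 11.36 to 11.76, 11.77 and 11.8 (0.38 ± 0.0838, adjusted p = 0.0245). AT2G36160 (11.12, 10.95 and 10.97 against 11.28, 11.24 and 11.25) had separate genotypes without passing (0.24 ± 0.0848, adjusted p = 0.104). AT3G52580 (10.17, 9.92 and 10.04 against 10.24, 10.15 and 10.19) overlapped (0.15 ± 0.0928, adjusted p = 0.35). Of the S3a genes, AT4G34670 rose, from 11.38, 11.41 and 11.57 to 11.8, 11.88 and 12 (0.44 ± 0.0954, adjusted p = 0.0225). AT3G04840 had 11.57, 11.22 and 11.63 in WT and 11.93, 11.93 and 11.83 in the mutant and missed the threshold (0.42 ± 0.12, adjusted p = 0.0553). The S27 gene AT5G47930, for a zinc-binding protein, did not pass (0.3, adjusted p = 0.0588).

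Among the body proteins, the S4 gene AT5G07090 changed most, from 10.48, 10.29 and 10.17 to 10.72, 10.84 and 10.95 (0.52 ± 0.109, adjusted p = 0.0199), with separate genotypes. AT2G17360 for S4 also rose (0.42, adjusted p = 0.0383), and AT5G58420 for S4 did not pass (0.32, adjusted p = 0.0593). Both S2 genes rose. AT3G57490 lay at 7.66, 7.46 and 7.66 in WT and 8.16, 8.04 and 7.93 in the mutant (0.45 ± 0.101, adjusted p = 0.0248), and AT2G41840 at 11.55, 11.4 and 11.48 and at 11.81, 11.83 and 11.91 (0.37 ± 0.0842, adjusted p = 0.0258). S2 and S9 line the channel by which mRNA enters. Of the S9 genes, AT5G39850 rose (0.4, adjusted p = 0.0181) and AT5G15200 did not pass (0.26, adjusted p = 0.0839). Neither S8 gene passed. AT5G20290, the brightest of the 39, lay at 12.81, 12.63 and 12.9 in WT and at 13.08, 13.07 and 13.09 in the mutant, without overlap (0.3 ± 0.094, adjusted p = 0.0759), and the dim AT5G59240 lay at 4.42, 4.21 and 4.69 and at 5.04, 4.62 and 4.51, with overlap (0.28 ± 0.168, adjusted p = 0.329). The S24 genes AT5G28060 (0.47, adjusted p = 0.0637) and AT3G04920 (0.26, adjusted p = 0.0974) did not pass. The S11 gene AT4G30800 lay at 7.15, 6.89 and 6.96 in WT and 7.08, 7.18 and 7.41 in the mutant, which overlapped (0.22 ± 0.116, adjusted p = 0.263).

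Of the 19 genes that did not pass, 12 had separate genotypes, with changes of 0.24 to 0.47 and adjusted p-values of 0.0553 to 0.178. The 20 calls were not equally firm. AT3G10610, AT3G53890, AT3G56340 and AT4G39200 passed in all 14 alternatives, and the other 16 lost the call in 1 to 7 of them, with highest adjusted p-values of 0.0558 to 0.118. AT2G32060 lost it only without mutant array 2.

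Genes for the same protein were then compared with each other. Of the 14 proteins with more than 1 measured gene, all measured genes rose for 2 (S2 and S12), some but not all for 10, and none for 2 (S8 and S24). A gene that passed beside a paralog that did not is no evidence that they differ, so the log2 ratio of the paralogs was taken on each array and compared between genotypes. This was done for 22 pairs, each ratio turned so that the gene with the larger change stands first. In 13 pairs the ratio did not overlap between genotypes (59.1%), against 32.5% of the 719 pairs of 40S genes for different proteins. The median size of the difference was the same in both kinds of pair, 0.14 on the log2 scale. Many pairs share a gene, and the share was not computed for pairs from all probe sets. The percentages therefore do not show that paralogs differ more than other genes. With 3 arrays against 3 the exact permutation test (two-sided) cannot go below 0.1. The 13 pairs had that value (0.169 after adjustment over the 22), so no pair could pass 0.05.

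The widest spread was within S19. Relative to its WT mean, the log2 ratio of AT5G61170 to AT5G15520 was 0.1, -0.3 and 0.2 on the WT arrays. On the mutant arrays it was 0.55, 0.55 and 0.47, a difference of 0.52 ± 0.155 SE (1.44-fold). Unlike the limma SEs above, the SEs of ratios came from 3 values per genotype alone, so small ones are uncertain. The ratio of AT3G02080 to AT5G15520 was 0.07, -0.16 and 0.1 in WT and 0.41, 0.38 and 0.37 in the mutant, a difference of 0.38 ± 0.083. In both pairs WT array 2 was lowest and the genotypes were separate. In S21, the ratio of AT3G53890 to AT5G27700 was 0.06, -0.19 and 0.13 in WT and 0.41, 0.3 and 0.37 in the mutant (difference 0.36 ± 0.102). The S25 ratio, AT4G39200 to AT2G21580, differed by 0.29 ± 0.111, and the S7 ratios of AT3G02560 and AT5G16130 to AT1G48830 by 0.26 ± 0.112 and 0.26 ± 0.0708, all without overlap. Within S14 the 3 ratios differed by 0.23 ± 0.045 (AT3G11510 to AT3G52580), 0.13 ± 0.0211 (AT3G11510 to AT2G36160) and 0.09 ± 0.0338 (AT2G36160 to AT3G52580), again without overlap.

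The remaining separate ratios were those of S4 (AT5G07090 to AT5G58420 by 0.2 ± 0.105 and to AT2G17360 by 0.1 ± 0.0325), S12 (0.11 ± 0.0499) and S10 (0.1 ± 0.0394). In the other 9 pairs the ratios overlapped between genotypes. Among these the differences in S15 (0.23 ± 0.126) and S24 (0.21 ± 0.151) were as large as some of the separate ones. The smallest were 0.01 ± 0.0604 between the 2 S7 genes that rose, 0.02 ± 0.143 in S3a, 0.02 ± 0.175 in S8 and 0.08 ± 0.102 in S2. In each of these pairs the SE exceeded the difference, so these values do not show that the paralogs changed alike. Whether a probe set also takes up signal from the near-identical transcript of a paralog was not tested, so changes within a protein are uncertain to that extent.

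**Figure D3:**
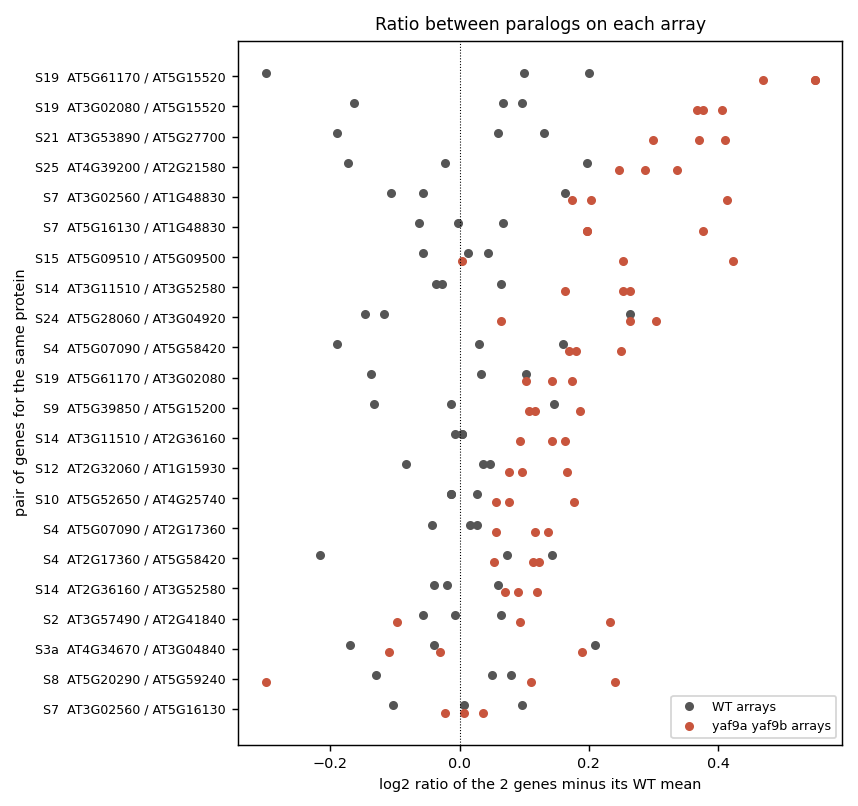
Log2 ratio between 2 genes for the same protein minus its WT mean (x axis) on 3 WT arrays (grey) and 3 yaf9a yaf9b arrays (red), for 22 pairs (y axis, sorted by the difference between genotypes). In 13 pairs the red points lie apart from the grey ones, with S19 at the top (difference 0.52) and an S7 pair at the bottom (0.01).

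The 40S genes were bright, so they were also set beside bright probe sets. The 39 had a median mean signal of 11 on the log2 scale, and 32 of them were among the 2276 brightest probe sets, those with a mean signal of at least 9.25. Of these 2276, 11.6% rose and 7.16% fell, and the median change was 0.02. Of the 32 genes, 17 rose (53.1%), as did 3 of the 7 dimmer ones. In 29 of the 32 every mutant array lay above every WT array, an arrangement found in 25.2% of the 2276. Across the 39 genes the change and the mean signal had a Pearson r of 0.33 and a Spearman rho of 0.24, as a description of genes that share the same arrays. The dimmest 20 had a median change of 0.32 and the brightest 19 of 0.38.

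**Figure D4:**
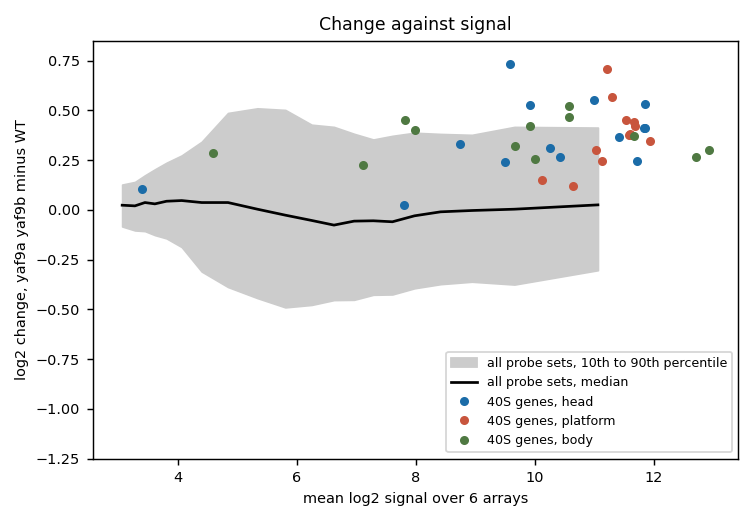
Log2 change (yaf9a yaf9b minus WT, y axis) against mean log2 signal over the 6 arrays (x axis) for the 39 genes (points, coloured by place in the subunit). The black line is the median and the grey band the 10th to 90th percentile of all probe sets in 20 bins of signal; the genes lie above the line at all signal levels.

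The 10 genes without a probe set of their own were covered by 7 probe sets that list several genes. Of these 7, 4 rose, at log2 changes of 0.27 to 0.43 for all 7, and none had overlapping genotypes. Over all probe sets 6.52% rose, and 15.6% had every mutant array above every WT array. For the 2276 brightest these shares were 11.6% and 25.2%. The 7 are not named, since their signal cannot be divided between the listed genes.

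Lists of genes from the same machinery were set beside the 40S genes. Of 128 genes for proteins of the large (60S) cytosolic subunit, 80 were measured, of which 38 rose and 0 fell (47.5%). The median log2 change of the 80 was 0.35, with 78 above 0. At an unadjusted limma p under 0.05, 62 were higher and 0 lower. The values of the 2 subunits lay close together, at medians of 0.37 and 0.35. AT3G06700 for L29 (0.84), AT5G67510 for L26 (0.87) and AT5G60670 for L12 (0.7) had the smallest p-values. Of 34 other 40S loci outside the 60, 9 were measured, most of them dim (median signal 3.66), and 2 rose. They were AT1G23410, which encodes a fusion of ubiquitin and S27a, and the S16 gene AT3G04230 (0.51 ± 0.0969, adjusted p = 0.0146). AT1G23410 had the larger rise, from 6.05, 5.63 and 5.93 to 7.34, 7.34 and 7.51 (1.53 ± 0.123, adjusted p = 0.00079).

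Nuclear genes for plastid ribosomal proteins, which are translated in the cytosol and imported, had other values. Of 34 such loci 9 were measured, of which 0 rose and 0 fell by limma and none reached an unadjusted p of 0.05. The median log2 change of the 9 was -0.04 and the range -0.13 to 0.06. Their signals were like those of the 40S genes (median 11.7 against 11). Of 28 loci for ribosome biogenesis factors, 10 were measured and 0 passed. Their median log2 change was 0.09 and the range -0.18 to 0.51, with 6 of the 10 above 0. At an unadjusted limma p under 0.05, 3 of the 10 were higher, against 13.3% of all probe sets. AT3G12860, a gene for the nucleolar protein NOP56, lay at 5.7, 5.04 and 5.52 in WT and 6.01, 5.96 and 5.81 in the mutant (0.51 ± 0.164, adjusted p = 0.0831). AT2G40360, a gene for BOP1, had 0.25 (adjusted p = 0.125), and AT1G52930, a gene for BRX1, had 0.31 (adjusted p = 0.153). Of 27 loci of the translation factor list, 5 were measured and 0 passed (median 0.05). AT2G40290 for eIF2 alpha, which had 0.3 (adjusted p = 0.0805), was the only measured gene of the list with an unadjusted p under 0.05. RAPTOR1, a partner of the growth-regulating TOR kinase and the only measured gene of 6 TOR pathway loci, had -0.07 (adjusted p = 0.643). Among all probe sets 6.52% rose and 6.61% fell, so 0 calls in lists this short say little. Differences between these lists were not tested.

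**Figure D5:**
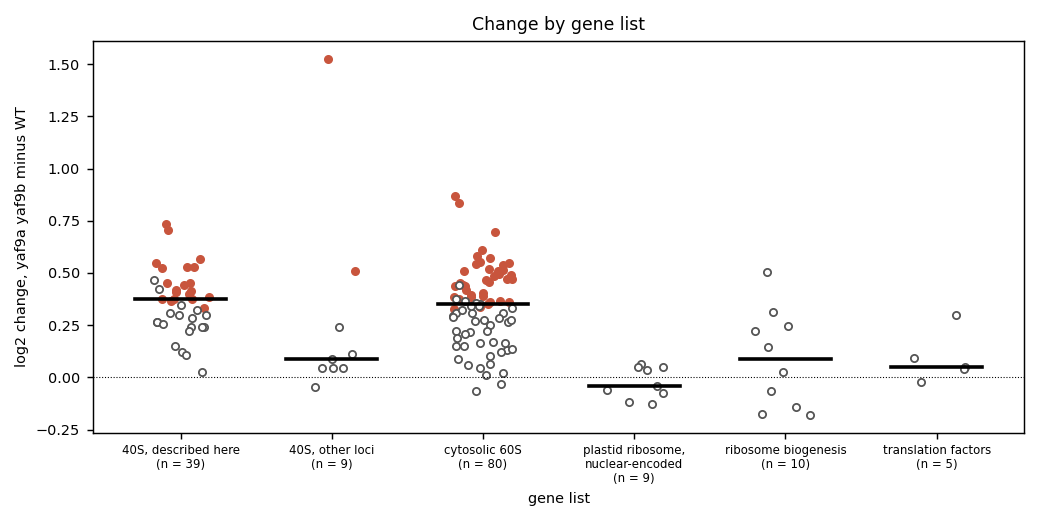
Log2 change (yaf9a yaf9b minus WT, y axis) of the measured genes of each list (x axis, with the number of genes); filled points passed the test and bars are medians. The 40S and 60S lists have medians of 0.37 and 0.35, and the plastid ribosomal list of -0.04.

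Markers of tissues that could differ in share were compared too. Of 9 genes of dividing cells, only AUR1, a mitotic kinase gene, was measured, at 5.88 to 6.1 in WT and 6.08 to 6.51 in the mutant (0.24 ± 0.128, adjusted p = 0.269). Of 4 root genes, 3 were measured and 0 passed by limma or at an unadjusted p of 0.05. The log2 of their summed signal was 12.2 to 12.4 in WT and 11.8 to 12.4 in the mutant. Nearly all of this sum was PYK10, since EXPA18 and EXPA7 were dim. Of 7 leaf genes, 3 were measured, and LHCB4.2 of the photosystem II antenna fell (-0.33 ± 0.0876, adjusted p = 0.0434). LHCB4.1 (-0.07, adjusted p = 0.642) and the photosystem II gene PSBW (-0.05, adjusted p = 0.824) did not pass, and their genotypes overlapped. The log2 of the summed signal of the 3 was 14.69 to 14.85 in WT and 14.56 to 14.65 in the mutant, lower without overlap. The part of these markers in the 40S change was not tested.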

How the data were processed

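Values were the deposited table of 6 ATH1 arrays, log2 signals with 1 column per array, which the submitters' processing notes credit to RMA and the affy package. Versions and a genome build were not given in the sources used here, so no coordinates are printed. RMA equalises the arrays' distributions, so a change common to most transcripts would be lost. Per the labels' protocols, 500 ng of total RNA per sample was labelled with a 3' in vitro transcription kit. No scan dates or batches were given, so a batch that followed genotype cannot be told apart from it.

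The 64 control probe sets of 22810 were left out. The other 22746 were fitted with limma (version 3.58.1, under R 4.3.3; lmFit, then eBayes; two-sided; no block; differences are mutant minus WT), with Benjamini-Hochberg adjustment over all of them and a threshold of 0.05. The fit was tested on simulated data. Of these probe sets, 13513 listed 1 gene, 503 several and 8730 none; names came from GEO's platform annotation and the RefSeq table of TAIR10.1.

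Paralogs were compared by the log2 ratio of their probe sets within each array, with exact permutation tests over arrays. The SE of each difference of ratios used the variances of that ratio within WT and within the mutant, without limma. Which protein a locus encodes follows the published Arabidopsis nomenclature, since the annotation tables give locus tags only. The members, the gene lists and the tests were chosen with earlier results of these data known, and the grouping by place in the subunit was made after the values were seen. Values per array are given for the 10 called genes with the largest change, the 5 genes with the smallest change, the proteins with the widest and narrowest spread between paralogs, and the S13 gene. Of each list, up to 3 genes with the smallest p were eligible. The remaining genes of the subunit fall outside this rule and were named once their values were known.

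Alternatives were median centring of the arrays, cyclic loess, array quality weights, a variance model with trend and robust fitting, removal of probe sets in the lowest 40% of mean signal or ending in _s_at or _x_at, the mean per gene, the replicate number as a block, and leaving out each array.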

Additional observations from a re-analysis of the deposited data

How the results depend on the processing

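The median change of the 40S genes ran from 0.32 to 0.40 over all alternatives. The numbers that rose were 18 after cyclic loess, 21 after median centring, 27 with the trended variance model and 26 with array quality weights. The shares of all probe sets that rose in these fits were 7.0%, 7.2%, 6.7% and 8.7%, against 6.52% as reported. Without dim probe sets 24 of 37 rose, against 10.2% of all probe sets kept. The number was 20 both without the cross-hybridising suffixes and with the mean per gene, against 6.8% of probe sets and 5.8% of genes. None of the 39 had such a suffix and each had a single probe set. The suffix and mean-per-gene alternatives thus left their values unchanged and could alter only the variance estimate and the adjustment. Leaving out 1 array gave 4 to 14, with fewer arrays, against 2.45% to 6.16% of all probe sets. With the replicate number as a block, 5 rose, all among the 20, against 3.05% of all probe sets. Same-numbered arrays had correlations of -0.21, 0.01 and -0.32 in their deviations from the group means, and no WT array correlated best with the mutant array of its own number, so the numbers gave no sign of pairing. Over all probe sets, 2985 changed (1482 higher, 1503 lower). With the block 1233 changed (693 and 540), and leaving out 1 array gave 963 to 2684 (557 to 1401 and 406 to 1283). With the mean per gene 1587 of 13286 changed (766 and 821), so fewer features were tested there. With array quality weights 2298 were lower, and the cause was not tested. Paralog pairs with separate ratios numbered 12 after cyclic loess and 13 to 15 leaving out 1 array. Over the 39 genes and the alternatives there were 544 comparisons, of which 81 lost a call, 19 gained a call and 2 changed sign, both in genes not called as reported: AT5G09500 (-0.017 without mutant array 1, up to 0.19 leaving out another) and AT5G15520 (-0.0017 without mutant array 3, up to 0.053 leaving out another). Signals near the floor, as of AT5G09500 and AT5G59240, limit what could be seen for those genes.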
